A study of Mus musculus with 21 samples.

Results

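The genes for intraflagellar transport (IFT) and the BBSome were followed through mouse spermatogenesis in 21 RNA libraries. Members were the gene rows whose symbol is Ift or Bbs followed by digits and letters, together with *Ttc21a*, *Ttc21b*, *Wdr19*, *Wdr35*, *Traf3ip1*, *Cluap1*, *Arl6*, *Arl13a* and *Arl13b*. This rule, which uses symbols and no measured value, found 31 of 24456 genes, and all 31 passed the filter on low counts in each comparison described here. IFT moves protein assemblies along the microtubules of a growing cilium or flagellum: IFT-B works with kinesin-2 toward the tip, and IFT-A works with dynein-2 on the way back to the base. The BBSome is an adapter complex that rides on these trains and carries membrane proteins, and mice without BBSome subunits are known for sperm that lack flagella. The sperm tail is assembled by spermatids, after meiosis, and mouse knockouts of several IFT genes disturb it.

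The study isolated total RNA from purified spermatogenic cell fractions of mouse testis and sequenced ribosomal RNA-depleted, stranded libraries. Wild-type animals were compared with *H2al2* KO animals, which lack H2A.L.2, a histone variant of late spermatids. For each genotype the labels give 3 libraries of pachytene spermatocytes (cells in meiotic prophase), 3 of round spermatids and 3 of condensing spermatids. Spermatozoa have 2 wild-type libraries and 1 *H2al2* KO library. The labels give testis as the tissue of every library and state no age, strain or design of the KO allele. The study describes its wild-type round spermatid samples as independent biological replicates. The labels do not say for any group that replicates come from separate animals, so p-values here measure the spread between these samples.

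The libraries held 2772995 to 8201682 counts on genes, with a median of 6872271, and the 3 spermatozoa libraries were the shallowest (2772995 to 3450580). A gene with no count in a library could still be present at up to 0.366 CPM (counts scaled to library size) in the deepest library and up to 1.08 CPM in the shallowest, from 3 counts of the total and covering counting error only. CPM values below are scaled by TMM factors over the 21 libraries and are listed in replicate order.

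The deleted gene was checked first. *H2afb1*, the symbol under which the files list H2A.L.2, gave 201, 206 and 211 CPM in wild-type round spermatids and 25.3, 25.4 and 20.7 CPM in *H2al2* KO round spermatids. In condensing spermatids it gave 190.1, 159.9 and 250.0 CPM in wild-type and 26.5, 35.7 and 30.0 CPM in KO libraries, and in pachytene spermatocytes 40.8, 36.7 and 14.5 CPM against 4.81, 4.92 and 3.16 CPM. KO libraries lay below every wild-type library in each of these stages, and the gene kept counts in each KO library. The KO minus wild-type difference was -3.10 on the log2 scale in round spermatids (SE 0.10, adjusted p = 3.40e-08) and -2.71 in condensing spermatids (SE 0.17, adjusted p = 9.54e-07). In pachytene spermatocytes it was -2.76 (SE 0.37) and not called (adjusted p = 0.484), while a call was made in 4 of 12 alternative settings.

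Stage markers followed the labels in part. The 6 pachytene markers (led by *Hspa2*) summed to 3597 to 4000 CPM in wild-type pachytene spermatocytes, 1784 to 1947 CPM in round spermatids and 1261 to 1744 CPM in condensing spermatids. The 6 elongating spermatid markers (led by *Prm2*) summed to 22547 to 25066 CPM in wild-type round spermatids and 22044 to 33249 CPM in condensing spermatids. Those sums overlap, although 2 of the 6 markers did not: *Odf1* gave 1621, 1655 and 1697 CPM in round and 2896, 2671 and 3483 CPM in condensing spermatids, and *Prm2* 7006, 7288 and 7648 CPM against 8577.5, 7841 and 11943 CPM. Within pachytene spermatocytes the same late markers gave 4602, 4321 and 1812 CPM in the wild-type libraries and 2468, 2628 and 2390 CPM in the KO libraries, so wild-type replicate 3 stood below the rest and replicates 1 and 2 above. Wild-type round spermatid replicates 2 and 3 were also more alike than any other replicates of a group, with a mean chi-square of 1.06 over genes with moderate counts, where other replicates gave at least 1.90. They were kept as separate libraries, and where summing both to 1 library ended the call of a member this is said beside the result.

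The members took a falling share of the RNA from stage to stage. Summed over the 31 genes, the level was 5520, 5671 and 5280 CPM in wild-type pachytene spermatocytes, 4412, 4407 and 4298 CPM in round spermatids, 3328, 3662 and 3177 CPM in condensing spermatids, and 2578 and 2068 CPM in spermatozoa. The groups did not overlap at any step. The sum leans on abundant members. From pachytene spermatocytes to round spermatids the wild-type mean of *Ift140* went from 1261 to 656 CPM and that of *Ift172* from 832 to 628 CPM. By contrast, 12 members had a higher mean in round spermatids than in pachytene or condensing fractions. *Bbs9* alone made 51.7% and 42.1% of the sum in the wild-type spermatozoa libraries, where the other 30 members together came to 1246 and 1198 CPM. KO libraries gave 5040, 5238 and 5617 CPM in pachytene spermatocytes, 4180, 4255 and 4387 CPM in round spermatids and 3429, 3449 and 3508 CPM in condensing spermatids, which overlapped the wild-type ranges at each of these stages. In these bulk fractions, fewer cells of a type and less RNA per cell cannot be told apart.

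**Figure D1:**
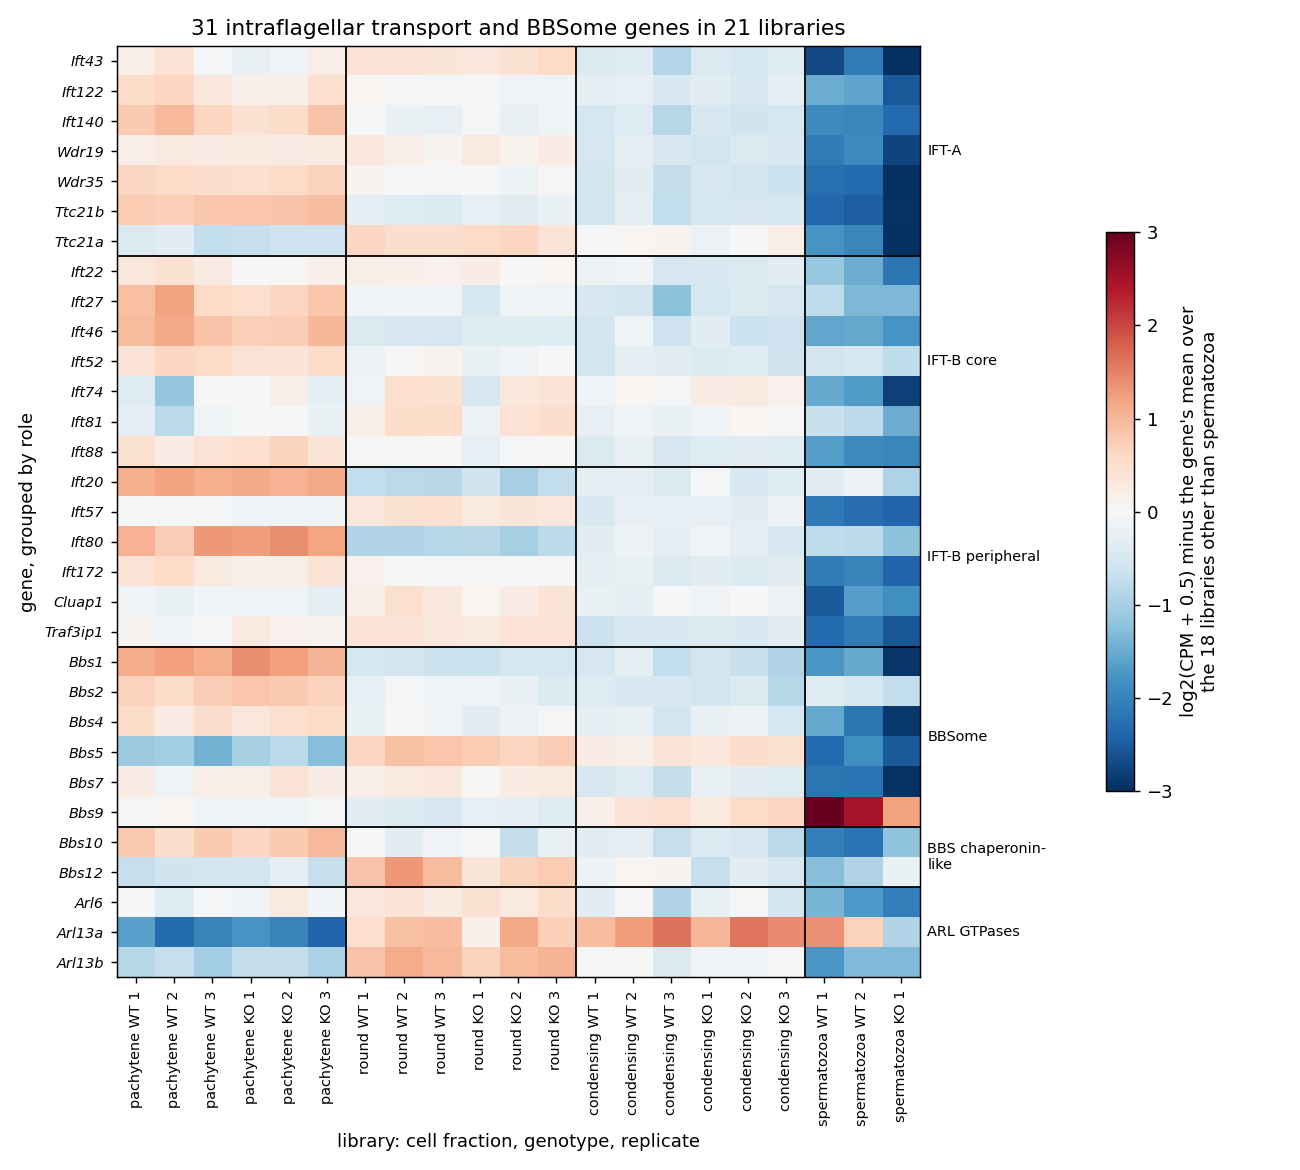
Color gives log2(CPM + 0.5) of each of the 31 members (rows, grouped by role) in each of the 21 libraries (columns, by cell fraction and genotype), minus the gene's mean over the 18 libraries other than spermatozoa. Within each stage before spermatozoa the wild-type and *H2al2* KO columns look alike, the spermatozoa columns are low for most rows, *Bbs9* is high in all 3 of them, and *Arl13a* is above its mean in the 2 wild-type ones.

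Levels between genes were compared per kilobase of exon. The highest member in wild-type pachytene spermatocytes was *Ift140*, a scaffold subunit of IFT-A, with 151 CPM per kb (SD 17.05, n = 3), followed by *Ift172*, the largest IFT-B subunit, with 126 CPM per kb (SD 13.5). In round spermatids *Ift74*, which forms the tubulin-binding module of IFT-B with *Ift81*, gave 103 CPM per kb (SD 21.7) and *Ift172* 94.9 CPM per kb (SD 6.09), a difference within the spread of the replicates. Per length of the longest transcript, *Ift43* (127.8 CPM per kb) and *Ift74* (127.6 CPM per kb) stood level ahead of *Ift172* (116.3 CPM per kb), so the order in round spermatids depends on the length used. In condensing spermatids *Ift74* and *Ift172* led with either length, with 81.0 CPM per kb (SD 4.996) for *Ift74* and 75.1 CPM per kb (SD 5.12) for *Ift172*, again within the spread. In wild-type spermatozoa *Bbs9* led with 176 CPM per kb (SD 52.4, n = 2), ahead of *Ift74* with 27.2 CPM per kb (SD 2.48). The lowest members were *Bbs12* in pachytene spermatocytes (1.26 CPM per kb, SD 0.0704), in condensing spermatids (2.05 CPM per kb, SD 0.188) and in spermatozoa (0.857 CPM per kb, SD 0.197), and *Bbs1* in round spermatids (2.67 CPM per kb, SD 0.117). *Ift140* gave 1240, 1412 and 1131 CPM in the wild-type pachytene libraries and 720.0, 635 and 612 CPM in round spermatids, without overlap.

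Which members change when spermatocytes become round spermatids was tested on the 3 wild-type libraries per stage by edgeR (quasi-likelihood), and a gene counts as called when its p, adjusted across the genes tested, is under 0.05. Of 31 members, 11 rose and 16 fell, and 4 were not called. Over all 14011 genes tested, 34.4% rose and 35.9% fell. The median log2 change was -0.34 over the members and -0.02 over all genes tested. From round to condensing spermatids 4 members rose and 19 fell, and 8 were not called, while 28.3% of the genes tested rose and 21.8% fell. The median log2 change of that step was -0.36 over the members and 0.04 over all genes tested. These steps share the round spermatid libraries, so a high or low round spermatid value enters both with opposite sign.

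By mean level, 17 members were highest in wild-type pachytene spermatocytes, 12 in round spermatids and 2 in condensing spermatids among these 3 stages. *Arl13a* rose at both steps. A set of 9 members rose and then fell (*Ttc21a*, *Ift81*, *Ift57*, *Cluap1*, *Traf3ip1*, *Bbs5*, *Bbs12*, *Arl6*, *Arl13b*), and 3 fell and then rose (*Ift20*, *Ift80*, *Bbs9*). A further 6 fell at both steps (*Ift140*, *Wdr35*, *Ift27*, *Ift52*, *Ift88*, *Ift172*). Another 7 fell at the first step and were not called at the second (*Ift122*, *Ttc21b*, *Ift46*, *Bbs1*, *Bbs2*, *Bbs4*, *Bbs10*), and 4 were not called at the first and fell at the second (*Ift43*, *Wdr19*, *Ift22*, *Bbs7*). *Ift74* rose and was then not called. The shares of all genes with these patterns, or highest at each stage, were not measured. These counts therefore show nothing particular to the members. With library-size scaling *Ift22* was called lower at the first step too (-0.35, adjusted p = 0.0324).

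**Figure D2:**
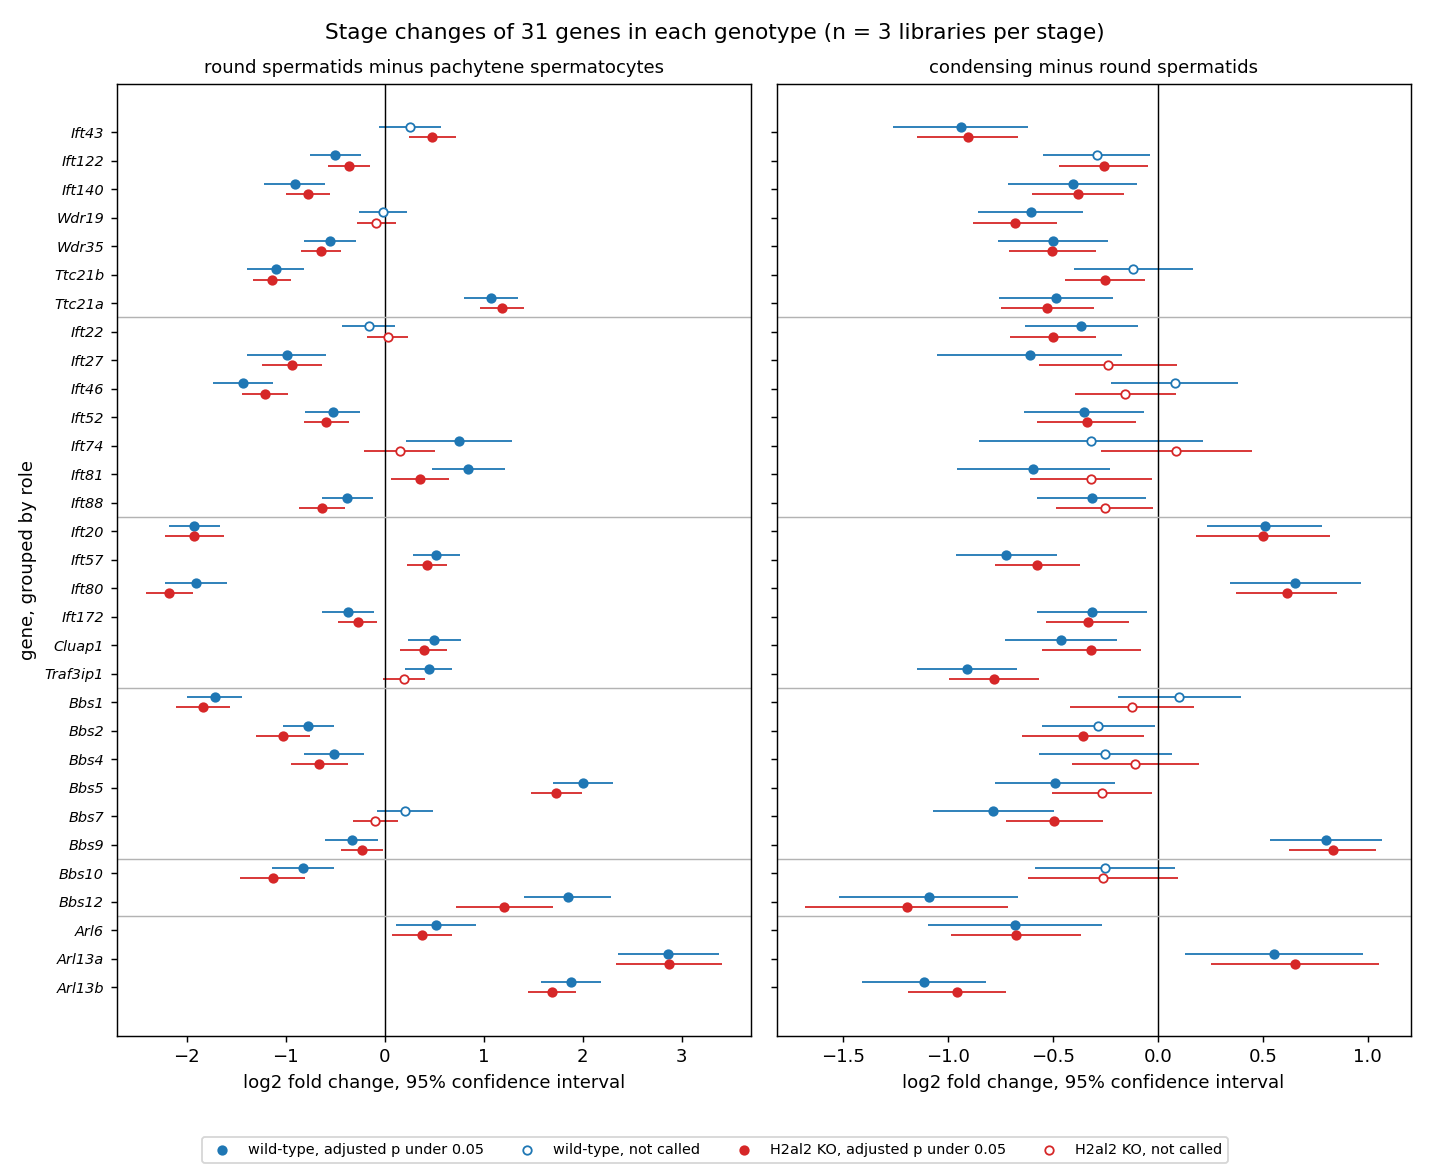
Points give the log2 fold change of each member from pachytene spermatocytes to round spermatids (left) and from round to condensing spermatids (right) in wild-type (blue) and *H2al2* KO (red) libraries, with lines for the 95% confidence interval and filled points for an adjusted p under 0.05 (n = 3 libraries per stage). *Arl13a*, *Bbs5*, *Arl13b* and *Bbs12* lie farthest right in the left panel, and *Ift20*, *Ift80*, *Bbs9* and *Arl13a* lie right of 0 in the right panel in both genotypes.

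Among the 7 IFT-A members, which serve the return train and the entry of membrane proteins into cilia, 1 rose and 4 fell from pachytene spermatocytes to round spermatids, with a median log2 change of -0.50. *Ttc21a* and *Ttc21b* are paralogs at the periphery of IFT-A. *Ttc21a*, variants of which are known from men with malformed sperm flagella, gave 207, 222 and 165 CPM in wild-type pachytene spermatocytes, 423, 399 and 398 CPM in round spermatids and 272, 288 and 297 CPM in condensing spermatids. *Ttc21b* gave 399, 392 and 425 CPM, then 195, 182 and 177 CPM, then 163, 198 and 142 CPM at the same stages. The paralogs thus lay in opposite order in spermatocytes and in round spermatids, and neither gene's pachytene libraries overlapped its round spermatid libraries. *Ttc21a* rose by 1.07 on the log2 scale (SE 0.13, adjusted p = 5.89e-06) and *Ttc21b* fell by 1.10 on the log2 scale (SE 0.13, adjusted p = 6.59e-06). Per kilobase, *Ttc21b* (43.7 CPM per kb, SD 1.86) and *Ttc21a* (36.7 CPM per kb, SD 5.51) lay close in pachytene spermatocytes, and *Ttc21a* (75.5 CPM per kb, SD 2.65) lay above *Ttc21b* (19.9 CPM per kb, SD 0.966) in round spermatids. *Ttc21a* then fell by 0.49 on the log2 scale to condensing spermatids (SE 0.13, adjusted p = 0.00630), where *Ttc21b* was not called (-0.12, SE 0.13, adjusted p = 0.483; -0.29 without condensing replicate 2 and -0.02 without replicate 3).

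The other IFT-A subunits fell or were not called. *Ift140* fell by 0.91 on the log2 scale to round spermatids (SE 0.14, adjusted p = 7.40e-05), and *Wdr35* and *Ift122* fell by 0.55 and 0.50. *Ift43*, a small subunit that binds *Ttc21b*, gave 91.8, 107 and 77.1 CPM in pachytene spermatocytes, 110, 108 and 104 CPM in round spermatids and 59.8, 61.2 and 43.6 CPM in condensing spermatids. Its pachytene and round spermatid values overlapped and every condensing library lay below both. *Ift43* was not called at the first step (0.25, SE 0.15, adjusted p = 0.135) and fell by 0.94 on the log2 scale at the second (SE 0.15, adjusted p = 0.000262). Without pachytene replicate 2 the first change of *Ift43* was called (0.37, adjusted p = 0.0415), and without replicate 3 it was 0.14. Over all settings this change ran from 0.07 to 0.37. *Wdr19*, a core subunit of IFT-A, differed by -0.02 between pachytene and round spermatids (adjusted p = 0.906) and fell by 0.61 to condensing spermatids (adjusted p = 0.000922). From round to condensing spermatids, 5 of the 7 IFT-A members fell and none rose, with a median log2 change of -0.49. The call of *Ift140* at this step (-0.41, adjusted p = 0.0298) was lost with library-size scaling and without replicate 1 or 2 of round or replicate 1 or 3 of condensing spermatids (adjusted p up to 0.105). *Ift122* (-0.29, adjusted p = 0.0555) gained a call in 6 of 16 settings, among them without pachytene replicate 2 or 3 or condensing replicate 2. *Wdr19* at the first step changed sign without pachytene replicate 2 (0.00343) or round spermatid replicate 3 (0.04). Its range over all settings was -0.20 to 0.04.

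Of the 7 IFT-B core members, which build the stable body of the outward train, 2 rose and 4 fell from pachytene spermatocytes to round spermatids (median log2 change -0.38). *Ift46*, a subunit needed to keep the core together, gave 142, 161 and 133 CPM in wild-type pachytene spermatocytes, 54.0, 52.4 and 51.2 CPM in round spermatids and 49.5, 66.7 and 47.4 CPM in condensing spermatids. All pachytene libraries lay above all later ones, and the spermatid stages overlapped. *Ift46* fell by 1.43 on the log2 scale (SE 0.14, adjusted p = 1.06e-06) and was not called afterward (0.08, SE 0.14, adjusted p = 0.660), where it was -0.13 without condensing replicate 2. The small GTPase *Ift27* fell by 0.99 (adjusted p = 0.000343), *Ift52* by 0.52 (adjusted p = 0.00254) and *Ift88*, known for the primary cilium of the kidney, by 0.38 (adjusted p = 0.0115) on the log2 scale. The call of *Ift88* was lost without wild-type pachytene replicate 1 (-0.34, adjusted p = 0.0518).

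*Ift74* and *Ift81*, partners in 1 module, varied within groups. *Ift74* gave 172, 98.0 and 227 CPM in wild-type pachytene spermatocytes, 206, 309 and 303 CPM in round spermatids and 202, 229 and 215 CPM in condensing spermatids. *Ift81* gave 117, 81.5 and 130 CPM, then 161, 209 and 208 CPM, then 121, 133 and 123 CPM. Both genes were lowest in pachytene replicate 2 and lower in round spermatid replicate 1 than in replicates 2 and 3, and for *Ift74* the pachytene and round spermatid ranges overlapped. *Ift81* rose by 0.84 on the log2 scale (SE 0.17, adjusted p = 0.000592) and then fell by 0.59 (SE 0.17, adjusted p = 0.0112). *Ift74* rose by 0.75 (SE 0.25, adjusted p = 0.0157). That call was lost with library-size scaling (0.55, adjusted p = 0.0676), without round spermatid replicate 2 (0.65, adjusted p = 0.0578) or 3 (0.67, adjusted p = 0.0549) and with both summed (0.67, adjusted p = 0.0550), and the change was 0.47 without pachytene replicate 2. From round to condensing spermatids 5 of the 7 core members fell and none rose (median log2 change -0.35). Of these, *Ift22*, *Ift27*, *Ift52* and *Ift88* each lost the call without round spermatid replicate 2, without replicate 3 and without condensing replicate 3. *Ift22* and *Ift88* also lost it without round spermatid replicate 1, *Ift52* and *Ift88* without condensing replicate 1, and *Ift88* without pachytene replicate 1, with no filter and with a replicate block. *Ift22*, *Ift52* and *Ift88* further lost it with library-size scaling (adjusted p of 0.0896, 0.105 and 0.140) and with round spermatid replicates 2 and 3 summed (adjusted p of 0.0577, 0.104 and 0.0888). Over all settings their adjusted p reached 0.0896 for *Ift22*, 0.0844 for *Ift27*, 0.166 for *Ift52* and 0.140 for *Ift88*.

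The 6 peripheral IFT-B members, which face the motor and the cargo, split into 3 that rose and 3 that fell from pachytene spermatocytes to round spermatids, and their median log2 change was 0.04. *Ift20*, known also at the Golgi apparatus, gave 45.1, 49.8 and 46.3 CPM in wild-type pachytene spermatocytes, 12.6, 11.96 and 11.7 CPM in round spermatids and 17.5, 17.4 and 15.8 CPM in condensing spermatids. *Ift80*, a subunit that pairs with itself in the train, gave 238, 192 and 282 CPM, then 61.1, 61.3 and 63.6 CPM, then 91.1, 104 and 93.1 CPM. Both genes were lowest in round spermatids and partly higher again in condensing spermatids, with no overlap between any of the 3 stages. *Ift20* fell by 1.93 on the log2 scale (SE 0.12, adjusted p = 3.76e-08) and then rose by 0.51 (SE 0.13, adjusted p = 0.00497). *Ift80* fell by 1.91 (SE 0.15, adjusted p = 1.80e-07) and then rose by 0.66 (SE 0.15, adjusted p = 0.00251).

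*Ift57*, *Cluap1* and *Traf3ip1*, subunits of the same peripheral complex, changed the other way. *Traf3ip1*, which links *Ift20* to the train, gave 67.3, 60.4 and 62.0 CPM in wild-type pachytene spermatocytes, 84.6, 86.2 and 81.2 CPM in round spermatids and 40.5, 45.5 and 46.0 CPM in condensing spermatids. Among these stages round spermatids were highest and condensing spermatids lowest, without overlap. *Traf3ip1* rose by 0.44 on the log2 scale (SE 0.11, adjusted p = 0.00254), a call lost with library-size scaling (0.25, adjusted p = 0.0595), and then fell by 0.91 (SE 0.11, adjusted p = 3.78e-05). *Ift57* rose by 0.52 and *Cluap1* by 0.50, and they fell by 0.72 and 0.46 at the next step. *Ift172* fell by 0.37 (adjusted p = 0.0145) and then by 0.31 (adjusted p = 0.0460). The first call of *Ift172* was lost without round spermatid replicate 2 or 3 or with both summed (adjusted p up to 0.0700). Its second call was lost in 10 of 16 settings, among them every setting that left out a round spermatid library, pachytene replicate 1 or condensing replicate 1 or 3 (adjusted p up to 0.140). It was also lost with round spermatid replicates 2 and 3 summed (adjusted p = 0.0729), with a replicate block (adjusted p = 0.0575), with library-size scaling and with no filter.

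Among the 6 BBSome subunits 1 rose and 4 fell from pachytene spermatocytes to round spermatids, with a median log2 change of -0.43. *Bbs5*, the subunit with lipid-binding domains, gave 24.9, 26.2 and 19.6 CPM in wild-type pachytene spermatocytes, 82.1, 99.3 and 95.8 CPM in round spermatids and 62.2, 60.8 and 71.3 CPM in condensing spermatids. *Bbs1*, a subunit that contacts *Arl6*, gave 67.5, 73.1 and 66.0 CPM, then 21.1, 20.9 and 19.4 CPM, then 21.7, 24.9 and 18.1 CPM. Among these stages *Bbs5* was lowest and *Bbs1* highest in pachytene spermatocytes, each without overlap with the spermatid stages. *Bbs5* rose by 2.00 on the log2 scale (SE 0.14, adjusted p = 8.96e-08) and then fell by 0.49 (SE 0.13, adjusted p = 0.00846). *Bbs1* fell by 1.72 (SE 0.13, adjusted p = 1.53e-07) and was not called at the next step (0.10, SE 0.14, adjusted p = 0.557), where it was -0.05 without condensing replicate 2. *Bbs2* and *Bbs4* fell by 0.77 and 0.52 on the log2 scale. *Bbs7* was not called (0.20, adjusted p = 0.182; 0.09 without pachytene replicate 2 and 0.01 with library-size scaling) and then fell by 0.78 (adjusted p = 0.000435).

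*Bbs9* encodes a BBSome subunit first known from a parathyroid hormone-responsive transcript. It gave 151, 162 and 142 CPM in wild-type pachytene spermatocytes, 123, 117 and 112 CPM in round spermatids and 173, 211 and 219 CPM in condensing spermatids. Among these stages round spermatids were lowest and condensing spermatids highest, without overlap. *Bbs9* fell by 0.34 on the log2 scale at the first step (SE 0.12, adjusted p = 0.0254) and rose by 0.80 at the second (SE 0.12, adjusted p = 0.000209). The first call was lost without pachytene replicate 1 or 2, without round spermatid replicate 2 or 3 and with those summed (-0.30 to -0.35, adjusted p up to 0.0971).

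The chaperonin-like members *Bbs10* and *Bbs12*, which help the BBSome assemble, moved apart. *Bbs12* gave 2.89, 3.11 and 3.23 CPM in wild-type pachytene spermatocytes, 9.40, 13.1 and 10.0 CPM in round spermatids and 4.46, 5.23 and 5.27 CPM in condensing spermatids. It was the member with the lowest level per kilobase in 3 of the 4 stages, and its groups did not overlap. *Bbs12* rose by 1.85 on the log2 scale (SE 0.20, adjusted p = 3.25e-06) and then fell by 1.09 (SE 0.20, adjusted p = 0.000639). *Bbs10* fell by 0.83 (SE 0.14, adjusted p = 0.000197) and was not called at the next step (-0.25, SE 0.15, adjusted p = 0.191; -0.15 without condensing replicate 3).

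All 3 ARL GTPases rose from pachytene spermatocytes to round spermatids, with a median log2 change of 1.88. *Arl13b*, a GTPase of the ciliary membrane that activates *Arl3*, gave 38.1, 42.8 and 34.3 CPM in wild-type pachytene spermatocytes, 127, 151 and 137 CPM in round spermatids and 68.2, 68.8 and 51.8 CPM in condensing spermatids. Its paralog *Arl13a*, the only member on the X chromosome, gave 6.50, 3.82 and 4.84 CPM, then 29.6, 38.8 and 40.2 CPM, then 40.5, 50.4 and 65.9 CPM. Among these stages *Arl13b* was highest in round spermatids and *Arl13a* in condensing spermatids, and none of them overlapped for either gene. *Arl13a* rose by 2.86 on the log2 scale (SE 0.24, adjusted p = 2.92e-07), the largest change of a member at this step, and *Arl13b* rose by 1.88 (SE 0.14, adjusted p = 1.40e-07). At the second step *Arl13b* fell by 1.11 (SE 0.14, adjusted p = 3.95e-05). *Arl13a* rose by 0.55 (SE 0.20, adjusted p = 0.0318), but this call was lost under DESeq2 (adjusted p = 0.0575) and without round spermatid replicate 1 (0.42) or 2 (0.60), without condensing replicate 2 (0.53) or 3 (0.34) or with round spermatid replicates 2 and 3 summed (adjusted p up to 0.158). *Arl6*, which recruits the BBSome to membranes, rose by 0.51 (adjusted p = 0.0256) and fell by 0.68 (adjusted p = 0.0102). The rise was not called with library-size scaling (0.33), without pachytene replicate 2 (0.40), without round spermatid replicate 1 (0.52) or 2 (0.48) or with replicates 2 and 3 summed (0.52), where adjusted p ran up to 0.165.

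**Figure D3:**
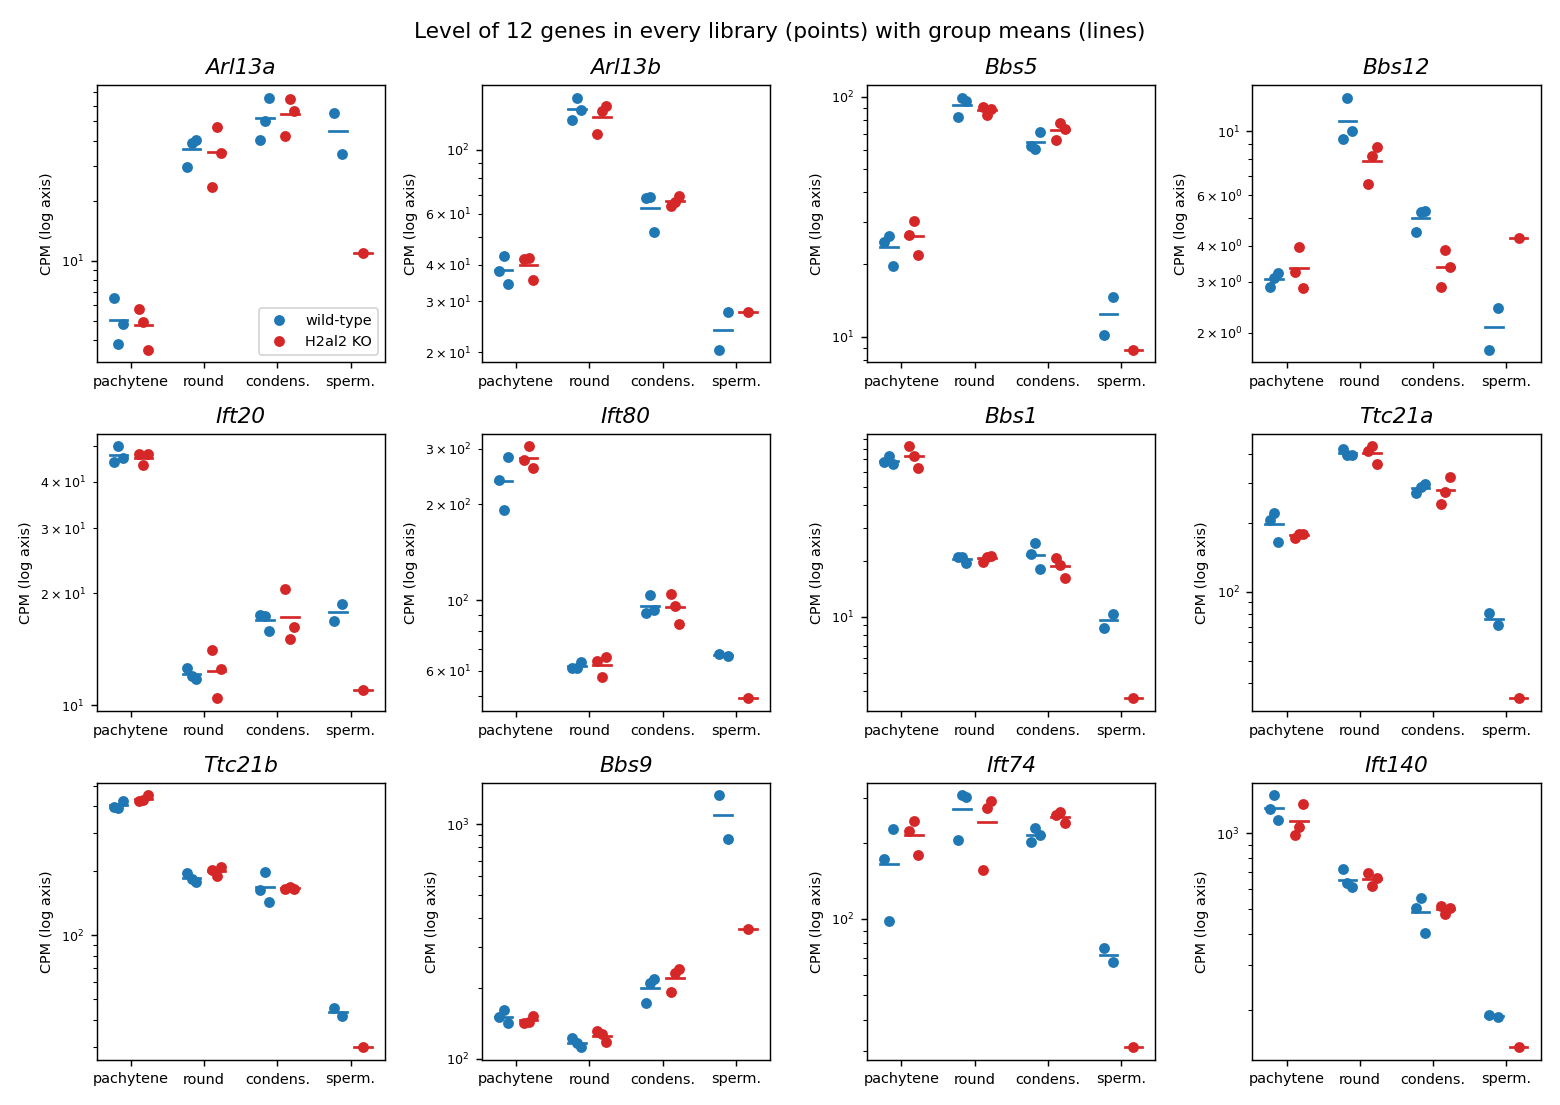
Points give the CPM (log axis) of 12 members in every library and lines the group mean, for wild-type (blue) and *H2al2* KO (red) pachytene spermatocytes, round spermatids, condensing spermatids and spermatozoa. *Arl13a*, *Arl13b*, *Bbs5* and *Bbs12* step up in round spermatids, *Ift20*, *Ift80*, *Bbs1* and *Ttc21b* step down, and *Bbs9* is highest in spermatozoa.

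What remains of these RNAs in sperm was compared between 2 wild-type spermatozoa libraries and 3 condensing spermatid libraries. Of 31 members 1 rose and 25 fell, and 5 were not called, while 36.6% of the 15116 genes tested rose and 35.8% fell. The median log2 change was -1.36 over the members and 0.00 over all genes tested. All 7 IFT-A members fell (median -1.72), as did 5 of 7 IFT-B core members (median -1.03), 5 of 6 peripheral IFT-B members (median -1.69), 4 of 6 BBSome subunits (median -1.30), both chaperonin-like members and 2 of 3 ARL GTPases. The members not called were *Ift27*, *Ift52*, *Ift20*, *Bbs2* and *Arl13a*.

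*Bbs9* gave 1332 and 870 CPM in wild-type spermatozoa against 173, 211 and 219 CPM in condensing spermatids, so both sperm libraries lay above all condensing ones. It rose by 2.50 on the log2 scale (SE 0.18, adjusted p = 7.28e-11), the only member to do so. The largest falls were those of *Bbs5*, *Ift57*, *Ttc21b* and *Cluap1*. *Bbs5* gave 10.2 and 14.6 CPM in spermatozoa and fell by 2.35 (SE 0.21, adjusted p = 1.70e-09), and *Ift57* gave 13.7 and 12.5 CPM against 45.5, 52.5 and 53.2 CPM in condensing spermatids and fell by 1.89 (SE 0.20, adjusted p = 2.33e-08). *Ttc21b* gave 45.8 and 42.0 CPM and fell by 1.88 (SE 0.17, adjusted p = 4.13e-09). *Cluap1* gave 9.62 and 18.04 CPM against 50.3, 48.0 and 57.6 CPM and fell by 1.88 (SE 0.23, adjusted p = 1.95e-07). In each of these genes the sperm libraries lay below all condensing libraries. When a library was left out, the change of *Cluap1* ran from -2.38 to -1.47. For *Ift43* it ran from -2.15 to -1.55 and for *Ttc21a* from -1.94 to -1.77, so the order of these falls is not resolved. *Arl13a*, with 55.1 and 34.3 CPM, overlapped its condensing spermatid values (-0.17, SE 0.21, adjusted p = 0.483), and the change was 0.04 without condensing replicate 3 and 0.13 without spermatozoa replicate 2. The smaller falls of *Ift81* (without spermatozoa replicate 2, -0.44, adjusted p = 0.0755), *Ift80* (without replicate 1, -0.47, adjusted p = 0.0576, or 2, -0.45, adjusted p = 0.0693) and *Bbs12* (without replicate 1, -0.97, adjusted p = 0.125) lost the call when a sperm library was left out. *Bbs12* also lost it under DESeq2 (adjusted p = 0.0735) and with a replicate block (-1.16, adjusted p = 0.0515).

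Markers of other cells changed in several directions between condensing spermatids and sperm libraries. The 4 epididymis epithelium markers summed to 1791.5 and 1896 CPM in wild-type spermatozoa and 549.99 CPM in the KO library, against 3.51 CPM or less elsewhere, with *Crisp1* the most abundant (1481, 1564 and 509 CPM) and *Lcn5* at 0 in every library. *Adam7* (310, 332 and 40.5 CPM) made most of the rest, and *Defb21* was lower in sperm (0.583, 0.347 and 0 CPM) than in wild-type condensing spermatids (0.727 to 1.76 CPM). The labels give testis as the tissue of these libraries, and whether the sperm came from the epididymis was not tested. All 5 macrophage markers were found in the sperm libraries and summed to 245 and 242 CPM in wild-type and 1076 CPM in KO spermatozoa, with *Csf1r* at 75.5, 76.0 and 271 CPM, against 20.5 to 25.2 CPM in wild-type condensing spermatids. The 3 red blood markers summed to 44.9, 46.8 and 46.0 CPM in spermatozoa, against 17.2 to 22.9 CPM in wild-type condensing spermatids. In spermatozoa all of it was *Alas2*, with the globin genes *Hba-a1* and *Hbb-bs* at 0. The 3 endothelium markers summed to 35.3 and 39.9 CPM in wild-type and 82.5 CPM in KO spermatozoa, against 44.6 to 61.7 CPM in wild-type condensing spermatids. *Pecam1* was higher in sperm (21.9, 25.7 and 59.7 CPM) than in wild-type condensing libraries (2.15 to 3.87 CPM), and *Vwf* and *Cdh5* were lower. The 4 multiciliated epithelium markers in the files, *Foxj1* among them, summed to 34.98, 38.2 and 21.01 CPM, below the 51.8 to 82.9 CPM of wild-type condensing spermatids, with *Mcidas* at 0 in 2 of these 3 libraries. *Foxj1* was lower in sperm (20.7, 20.8 and 16.1 CPM), while *Ccno* and *Cdc20b* were higher in wild-type sperm than in wild-type condensing libraries. Leydig markers went from 129 to 197 CPM in wild-type condensing spermatids to 9.91 and 9.37 CPM in wild-type and 16.75 CPM in KO spermatozoa. Peritubular myoid markers went from 304 to 411 CPM to 94.4 and 87.4 CPM (KO 48.1 CPM). Sertoli markers went from 329 to 424 CPM to 242 and 204 CPM (KO 280 CPM). In sperm the Sertoli sum was nearly all *Clu* (225, 185 and 273 CPM). Each other Sertoli gene was lower in sperm than in wild-type condensing libraries, with *Wt1* going from 24.6 to 31.1 CPM to 3.50, 0.694 and 2.13 CPM. Mitochondrial genes held 4.48% to 6.47% of gene counts in wild-type condensing spermatids, 10.9% in both wild-type spermatozoa libraries and 5.93% in the KO library. The part of these cells and of mitochondrial RNA in the sperm values of *Bbs9* and the other members was not tested.

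Condensing fractions carried more RNA of Sertoli and Leydig cells than round spermatid fractions. The 6 Sertoli markers summed to 41.4, 31.6 and 26.0 CPM in wild-type round spermatids and 415, 329 and 424 CPM in condensing spermatids, with *Clu* most abundant (303, 245 and 325 CPM) and *Wt1* at 26.6, 24.6 and 31.1 CPM in the latter. In pachytene spermatocytes these markers came to 27.1, 27.7 and 33.6 CPM, and in KO libraries to 19.6, 13.5 and 10.5 CPM, then 25.2, 24.8 and 19.0 CPM, then 321, 295 and 266 CPM. The 5 Leydig markers, with *Cyp17a1* most abundant in wild-type pachytene and condensing fractions, summed to 69.2, 133 and 138 CPM in wild-type pachytene spermatocytes, 9.80, 11.3 and 12.3 CPM in round spermatids and 174, 129 and 197 CPM in condensing spermatids. Their KO sums were 94.0, 45.5 and 22.4 CPM, then 8.63, 6.76 and 5.90 CPM, then 113, 74.6 and 82.8 CPM, so KO libraries lay below the wild-type ones at all 3 stages for Sertoli markers and in round and condensing spermatids for Leydig markers. For Sertoli markers in condensing spermatids this rested on *Clu* (219.8, 197 and 183 CPM in KO), and the other 5 genes overlapped between genotypes. In round spermatids it rested on *Clu* too (30.8, 23.8 and 20.2 CPM in wild-type, 17.3, 17.3 and 14.1 CPM in KO libraries). Among Leydig markers in round spermatids, *Star* alone did not overlap between genotypes. The 4 peritubular myoid markers rested on *Actg2* and summed to 85.4, 94.9 and 54.1 CPM in pachytene spermatocytes, 333, 328 and 335 CPM in round spermatids and 324, 304 and 411 CPM in condensing spermatids of wild-type animals. Below that sum, *Acta2* went from 3.22, 4.87 and 2.90 CPM in round to 21.1, 15.0 and 23.9 CPM in condensing spermatids and *Myh11* from 5.91, 7.37 and 6.52 CPM to 20.8, 17.7 and 29.5 CPM. Endothelium markers, with *Vwf* most abundant, ran from 13.8 to 21.995 CPM in wild-type pachytene spermatocytes, from 24.4 to 27.3 CPM in round and from 44.6 to 61.7 CPM in condensing spermatids. Macrophage markers came to 1.91 to 3.61 CPM in pachytene and 16.2 to 19.9 CPM in round spermatids. The 6 spermatogonium markers summed to 39.0 to 53.1 CPM in wild-type pachytene spermatocytes. Their sums were 43.6 to 47.7 CPM in wild-type round and 69.6 to 77.7 CPM in condensing spermatids. In these wild-type fractions *Kit* was most abundant in pachytene and round and *Uchl1* in condensing libraries. The red blood markers, nearly all *Alas2*, came to 0.870 to 1.95 CPM in wild-type round and 17.2 to 22.9 CPM in condensing spermatids. In wild-type libraries the 6 round spermatid markers summed to 829 to 1052 CPM in pachytene spermatocytes, 1526 to 1651 CPM in round spermatids, 847 to 976 CPM in condensing spermatids and 189 to 200 CPM in spermatozoa. Among them *Tssk1* was most abundant in wild-type round spermatids (402, 408 and 424 CPM), while *Spag6* was highest in pachytene spermatocytes (518, 544 and 495 CPM, then 353, 337 and 319.5 CPM in round spermatids). Multiciliated epithelium markers, nearly all *Foxj1*, which spermatids also express, came to 26.1 to 60.2 CPM, 162 to 192 CPM and 51.8 to 82.9 CPM at the 3 stages. The part of these other cells in the stage changes of the members was not tested.

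Whether the same stage changes occur without H2A.L.2 was tested in the KO libraries, which share no library with the wild-type tests. From pachytene spermatocytes to round spermatids 10 of 31 members rose and 16 fell, while 36.5% of the 13877 genes tested rose and 38.4% fell. From round to condensing spermatids 4 members rose and 18 fell, while 29.7% of the genes tested rose and 24.5% fell. The median log2 change was -0.23 over the members and 0.00 over all genes at the first step, and -0.32 and 0.03 at the second. At the first step 9 members rose and 16 fell in both genotypes (29.0% and 51.6% of members, against 31.7% and 33.8% of the 13676 genes tested in both). *Ift74* and *Traf3ip1* were called in wild-type libraries alone and *Ift43* in KO libraries alone, although *Ift43* was called in wild-type libraries too without pachytene replicate 2 (0.37, adjusted p = 0.0415). At the second step *Ift20*, *Ift80*, *Bbs9* and *Arl13a* rose and 15 members fell in both genotypes (12.9% and 48.4% of members, against 24.4% and 18.8% of those genes). *Ift27*, *Ift81*, *Ift88* and *Bbs5* were called lower in wild-type libraries alone, and *Ift122*, *Ttc21b* and *Bbs2* in KO libraries alone. In wild-type libraries *Ift122* was called lower too in 6 of 16 settings, such as without pachytene replicate 2 (-0.30, adjusted p = 0.0388) or 3 (-0.30, adjusted p = 0.0210) or condensing replicate 2 (-0.37, adjusted p = 0.0461), and *Bbs2* with DESeq2 size factors (-0.33, adjusted p = 0.0450). No member was called in opposite directions, as was the case for all but 1 of the 13676 genes at the first step and for all of them at the second. The stage with the highest mean was the same in both genotypes for 28 of 31 members, the others being *Ift22*, *Ift74* and *Bbs7*. The share of all genes with the same highest stage in both genotypes was not measured.

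KO values are given here for 4 of the members named above. *Arl13a* gave 5.75, 4.92 and 3.59 CPM in KO pachytene spermatocytes, 23.5, 46.7 and 34.6 CPM in round spermatids and 42.2, 64.8 and 56.5 CPM in condensing spermatids. *Bbs5* gave 26.6, 30.5 and 21.8 CPM, then 90.6, 84.2 and 89.3 CPM, then 66.2, 77.7 and 73.6 CPM. Each of these ranges overlapped the wild-type range of its stage. *Ift20* gave 47.7, 44.3 and 47.5 CPM, then 14.1, 10.4 and 12.5 CPM, then 20.6, 15.1 and 16.3 CPM in KO libraries. *Bbs9* gave 142, 144 and 152 CPM, then 131, 127 and 119 CPM, then 193, 232 and 242 CPM. For *Ift20* and *Bbs9* too, KO and wild-type ranges overlapped at each stage.

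A direct test of the KO within each stage called no member. In pachytene spermatocytes edgeR called 0 of 31 members and 0% of 12236 genes, and at an unadjusted p under 0.05 it gave 0 members and 6.66% of the genes. DESeq2 also called 0 members and gave 0 at an unadjusted p under 0.05. In round spermatids edgeR called 0 members and 0.0156% of 12804 genes, with 1 member and 5.88% of the genes at an unadjusted p under 0.05, and DESeq2 called 0 members and gave 0 unadjusted. In condensing spermatids edgeR called 0 members and 0.00728% of 13734 genes, with 2 members and 6.33% of the genes at an unadjusted p under 0.05, and DESeq2 called 0 and gave 1 unadjusted. The median log2 difference, KO minus wild-type, was 0.09, -0.04 and 0.02 over the members at the 3 stages and 0.01, 0.00 and -0.01 over all genes tested. The 95% confidence interval lay within 1 log2 unit of 0 for 30, 31 and 30 of the 31 members, the exceptions being *Ift74* in pachytene spermatocytes (up to 1.10) and *Bbs12* in condensing spermatids (down to -1.08). With replicate number as a block, which same-numbered round spermatid libraries allow, 0 members were called there, and the count over all genes went from 2 to 61.

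The members with the smallest p at each stage are given as values, since none passed the test. *Bbs12* gave 6.54, 8.23 and 8.78 CPM in KO round spermatids against 9.40, 13.1 and 10.0 CPM in wild-type, and 2.88, 3.87 and 3.38 CPM in KO condensing spermatids against 4.46, 5.23 and 5.27 CPM. KO libraries lay below wild-type ones in both spermatid stages, while in pachytene spermatocytes the KO values of 3.26, 3.97 and 2.87 CPM overlapped the wild-type values. The difference was -0.45 in round spermatids (SE 0.19, adjusted p = 0.790; -0.29 without wild-type replicate 2) and -0.57 in condensing spermatids (SE 0.24, adjusted p = 0.738). *Ift74* gave 259, 265 and 240 CPM in KO condensing spermatids against 202, 229 and 215 CPM, without overlap, a difference of 0.23 (SE 0.11, adjusted p = 0.785). In pachytene spermatocytes *Traf3ip1* gave 78.1, 70.3 and 68.4 CPM in KO and 67.3, 60.4 and 62.0 CPM in wild-type libraries (0.26, SE 0.12, adjusted p = 0.656). *Ift22*, a small GTPase-like subunit, gave 70.2, 71.9 and 77.9 CPM against 88.6, 95.8 and 83.7 CPM (-0.22, SE 0.10, adjusted p = 0.656). Neither gene's groups overlapped there. *Ttc21b* in round spermatids gave 201, 188 and 208 CPM in KO and 195, 182 and 177 CPM in wild-type libraries, which overlapped (0.12, SE 0.08, adjusted p = 0.956).

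The difference between genotypes in the stage change was tested as an interaction over 18 libraries. For the step from pachytene spermatocytes to round spermatids edgeR called 0 members and 0% of 14479 genes, with 1 member and 7.25% of the genes at an unadjusted p under 0.05. For the step from round to condensing spermatids it called 0 members and 0% of the genes, with 0 members and 2.81% of the genes unadjusted. DESeq2 called 0 members and gave 0 unadjusted at each step. The 95% confidence interval lay within 1 log2 unit of 0 for 28 and 30 of the 31 members. The smallest p at the first step belonged to *Bbs12* (-0.65, SE 0.30, adjusted p = 0.676) and *Ift81* (-0.49, SE 0.25, adjusted p = 0.676), which were -0.36 and -0.27 without replicate 2 of every group. *Ift81* gave 143, 142 and 123 CPM in KO pachytene spermatocytes and 128, 193 and 205 CPM in KO round spermatids, ranges that overlap. At the second step the smallest p belonged to *Bbs7* (0.28, SE 0.18, adjusted p = 1) and *Ift46* (-0.25, SE 0.18, adjusted p = 1), the latter at -0.44 without replicate 1 and -0.01 without replicate 2 of every group. Without replicate 3 of every group the first interaction went from 0 to 731 genes called over all genes, still with 0 members (smallest adjusted p 0.0753) and with 5 of the 36 pathway genes below. The KO comparison in pachytene spermatocytes likewise went from 0 to 243 genes without wild-type replicate 3, with 0 members called (smallest adjusted p 0.0788), and that in round spermatids from 2 to 264 genes without wild-type replicate 1, with 0 members called.

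The single KO spermatozoa library was not tested. It gave 360 CPM of *Bbs9* against 1332 and 870 CPM in wild-type, 10.96 CPM of *Arl13a* against 55.1 and 34.3 CPM, and 31.1 CPM of *Ift74* against 76.9 and 67.6 CPM. It lay below both wild-type libraries for 26 of 31 members and between them for 2. It lay above both for *Bbs10*, *Bbs12* and, by 27.41 against 27.40 CPM, *Arl13b*. The share of all genes on each side was not measured, so these counts show nothing particular to the members. The summed member level was 1171 CPM in KO and 2578 and 2068 CPM in wild-type spermatozoa. The 6 elongating spermatid markers were lower in that library too (9618 CPM against 25461 and 23066 CPM), while macrophage markers were higher, and their part in these values was not tested.

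Genes of the pathway outside the symbol rule were followed as 6 lists with 36 genes found in the files. In wild-type libraries 12 rose and 13 fell from pachytene spermatocytes to round spermatids (median log2 change -0.09), where 34.4% of all genes tested rose and 35.9% fell. At the next step 7 rose and 20 fell (median -0.41, against 28.3% and 21.8% of all genes), and from condensing spermatids to spermatozoa 4 rose and 23 fell (median -1.05, against 36.6% and 35.8%). In the KO libraries 14 rose and 17 fell at the first step (36.5% and 38.4% of all genes) and 7 rose and 19 fell at the second (29.7% and 24.5%). With all libraries no pathway gene was called by edgeR in a KO comparison or interaction, and 0 to 1 of them had an unadjusted p under 0.05. DESeq2 called 0 of them as well, with 0 to 2 unadjusted.

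Of the 5 IFT subunits under other symbols, 4 fell and none rose at the first step. *Ttc30a1*, the mouse form of an IFT-B subunit that stabilizes the train, gave 88.2, 93.2 and 83.1 CPM in wild-type pachytene spermatocytes, 14.2, 10.9 and 11.9 CPM in round spermatids and 20.6, 21.2 and 17.04 CPM in condensing spermatids. Among these stages it was highest in spermatocytes and lowest in round spermatids, without overlap. *Ttc30a1* fell by 2.80 on the log2 scale (SE 0.14, adjusted p = 8.61e-09) and then rose by 0.70 (SE 0.14, adjusted p = 0.00171). Its relative *Ttc30b* gave 17.2, 14.3 and 13.3 CPM in round and 9.08, 8.14 and 5.10 CPM in condensing spermatids, without overlap, and fell by 0.97 (SE 0.22, adjusted p = 0.00250). Among 4 BBSome genes and partners 1 rose and 2 fell at the first step. *Ttc8*, the BBSome subunit also called BBS8, gave 27.4, 27.5 and 24.6 CPM, then 3.63, 4.31 and 4.06 CPM, then 7.85, 10.2 and 6.85 CPM at the 3 stages. Like *Ift20*, *Ift80*, *Bbs9* and *Ttc30a1*, it was lowest in round spermatids among these stages, and its values at these stages did not overlap. *Ttc8* fell by 2.69 (SE 0.17, adjusted p = 5.12e-08) and then rose by 1.08 (SE 0.19, adjusted p = 0.000580).

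Motor genes differed within each list. Of 5 anterograde motor genes 2 rose and 1 fell at the first step, and of 7 retrograde motor genes 3 rose and 2 fell. *Kif17*, a homodimeric kinesin-2 of cilia with a testis role in shuttling a transcriptional coactivator, gave 152, 194 and 92.4 CPM in wild-type pachytene spermatocytes, 633, 634 and 632 CPM in round spermatids and 654, 642 and 789 CPM in condensing spermatids. All spermatid libraries lay above all spermatocyte libraries, and *Kif17* rose by 2.15 (SE 0.21, adjusted p = 1.20e-06). *Kif3c*, a motor subunit of kinesin-2, gave 1.07, 0.973 and 1.02 CPM in round spermatids, 2.46, 2.91 and 1.41 CPM in condensing spermatids and 10.8 and 9.71 CPM in spermatozoa. The spermatid values are low and rest on few counts. *Kif3c* rose at each of these steps without overlap, by 1.17 (SE 0.40, adjusted p = 0.0276) and by 2.20 (SE 0.36, adjusted p = 1.55e-05). The former call was lost under DESeq2, without any of the 3 round spermatid libraries or condensing replicate 1 or 2, and with round spermatid replicates 2 and 3 summed (adjusted p up to 0.124).

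*Wdr34*, an intermediate chain of dynein-2, gave 76.1, 86.6 and 75.4 CPM in pachytene spermatocytes and 22.2, 14.3 and 16.8 CPM in round spermatids, without overlap, and fell by 2.12 (SE 0.16, adjusted p = 1.36e-07). The dynein light chains *Dynlrb1* and *Dynlrb2* went opposite ways into spermatozoa. *Dynlrb1* gave 8, 5.96 and 6.15 CPM in condensing spermatids and 16.9 and 13.9 CPM in spermatozoa, and *Dynlrb2* gave 29.7, 31.7 and 26.2 CPM and then 5.25 and 2.77 CPM. Neither gene overlapped between the stages, and *Dynlrb1* rose by 1.25 (SE 0.26, adjusted p = 0.000239) while *Dynlrb2* fell by 2.78 (SE 0.28, adjusted p = 1.60e-08). Of 7 GTPases and adapters 1 rose and 2 fell at the first step. *Tulp3*, which carries membrane receptors to IFT-A, gave 0.940, 1.39 and 1.74 CPM in round spermatids and 3.08, 3.20 and 5.62 CPM in condensing spermatids. These low values did not overlap, and *Tulp3* rose by 1.55 (SE 0.35, adjusted p = 0.00277).

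Of 8 transcription factors known for ciliary or postmeiotic genes, 5 rose and 2 fell from pachytene spermatocytes to round spermatids. *Rfx1*, a factor that binds X-box motifs, gave 46.2, 58.7 and 28.9 CPM in wild-type pachytene spermatocytes and 187, 187 and 187 CPM in round spermatids. *Foxj1*, a regulator of motile cilia, gave 47.5, 56.4 and 22.9 CPM, then 188, 158 and 155 CPM, then 78.5, 71.2 and 48.0 CPM. Round spermatid libraries lay above all spermatocyte libraries for both genes, and *Foxj1* overlapped only between spermatocytes and condensing spermatids. *Rfx1* rose by 2.10 (SE 0.19, adjusted p = 6.34e-07), and *Foxj1* rose by 2.01 (SE 0.26, adjusted p = 1.47e-05) and then fell by 1.32 (SE 0.26, adjusted p = 0.00110). *Rfx3*, another X-box factor, gave 65.2, 68.2 and 84.0 CPM in condensing spermatids and 468 and 342 CPM in wild-type spermatozoa, above all condensing libraries, and 100.5 CPM in the KO sperm library. It rose by 2.53 (SE 0.16, adjusted p = 1.69e-11). *Taf7l*, a testis-specific subunit of the general transcription factor TFIID, gave 44.0, 55.1 and 57.3 CPM in round spermatids, 27.2, 29.7 and 27.8 CPM in condensing spermatids and 1.75 and 4.86 CPM in spermatozoa. Each stage lay below the one before it, and *Taf7l* fell by 0.86 on the log2 scale (SE 0.13, adjusted p = 0.000176) and then by 3.09 (SE 0.31, adjusted p = 1.59e-08). *Mybl1*, which encodes the meiotic regulator A-MYB, gave 93.4, 114 and 87.3 CPM in condensing spermatids and 21.9 and 14.2 CPM in spermatozoa, without overlap, and fell by 2.38 (SE 0.20, adjusted p = 9.81e-10).

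Promoters of members were read from RefSeq (GRCm38.p6, the same assembly as mm10), 250 bases before to 50 after each start, and searched on both strands for motifs of the factors above. Of 31 members 27 were in the table, with 28 promoters, and *Ift122*, *Ift81*, *Ift80* and *Arl13a* were not. GTTGCC, an arm of the X-box bound by RFX factors, was in 12 of 28 member promoters (42.9%) and in 12.5% of all 32851 promoters. Of the 12 members that carry it, 5 rose from pachytene spermatocytes to round spermatids (*Ttc21a*, *Ift57*, *Traf3ip1*, *Bbs5*, *Arl13b*). A further 6 fell (*Ift140*, *Wdr35*, *Ift27*, *Ift88*, *Ift172*, *Bbs1*) and *Bbs7* was not called. Over all genes tested at this step 34.4% rose and 35.9% fell, and no difference from these shares was tested. The paired X-box, with GTTNCC and its reverse complement GGNAAC set 1 to 3 bases apart, was in 2 member promoters (7.14%) and in 0.776% of all. TGACGTCA, the cAMP response element (CRE), was in 1 member promoter (3.57%) and in 1.79% of all, and its arm TGACG was in 11 (39.3%) against 20.8%. CAACNG, the core of MYB sites, was in 16 (57.1%) against 35% of all. Member promoters were also richer in G and C, with a median of 61% against 52.7%, so the shares are not compared at like base composition. In *Bbs7*, *Ift57*, *Arl13b*, *Traf3ip1* and *Ift88* a CAACNG match overlaps GTTGCC letters, and in *Ift57* the TGACG matches are those of the CRE.

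The promoters that hold the paired X-box and those of 3 genes with GTTGCC that rose from spermatocytes to round spermatids are printed 5′ to 3′ on the gene's strand, with X-box letters in capitals. A match describes letters in the window and no more. In *Bbs7* (chr3:36613340-36613639, minus strand) the paired X-box begins at -121 from the start used for its window, and *Bbs7* was not called between pachytene and round spermatids. GENCODE places the 5′ end of *Bbs7* at 36613477, upstream of that start. In *Ift57* (chr16:49699044-49699343, plus strand) the paired X-box begins at -60, with another GTTGCC at -87 and the CRE at -162. GENCODE begins *Ift57* at 49699233, upstream of the start used for its window.
Bbs7: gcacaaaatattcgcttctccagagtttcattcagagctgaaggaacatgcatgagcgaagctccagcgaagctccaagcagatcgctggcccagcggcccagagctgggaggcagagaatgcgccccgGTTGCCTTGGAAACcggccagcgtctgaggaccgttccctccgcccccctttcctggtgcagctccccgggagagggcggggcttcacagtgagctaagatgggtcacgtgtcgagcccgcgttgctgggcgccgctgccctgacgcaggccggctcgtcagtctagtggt
Ift57: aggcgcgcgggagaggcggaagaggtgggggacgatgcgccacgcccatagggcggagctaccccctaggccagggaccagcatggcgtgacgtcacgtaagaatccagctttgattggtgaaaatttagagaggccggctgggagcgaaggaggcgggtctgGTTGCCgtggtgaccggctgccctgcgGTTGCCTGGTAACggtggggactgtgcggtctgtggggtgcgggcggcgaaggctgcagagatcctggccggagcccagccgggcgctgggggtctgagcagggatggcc
The others are those of *Arl13b* (chr16:62846991-62847290, minus strand), with GTTGCC at -181, *Bbs5* (chr2:69646921-69647220, plus strand), with GTTGCC at 42 inside the transcribed part, and *Ttc21a* (chr9:119937356-119937655, plus strand), with GTTGCC at 6.
Arl13b: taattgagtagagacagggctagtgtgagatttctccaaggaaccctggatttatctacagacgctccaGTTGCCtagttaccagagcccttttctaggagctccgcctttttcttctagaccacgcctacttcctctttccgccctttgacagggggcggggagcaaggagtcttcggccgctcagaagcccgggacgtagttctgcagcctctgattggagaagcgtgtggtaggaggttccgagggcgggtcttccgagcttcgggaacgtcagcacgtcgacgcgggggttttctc
Bbs5: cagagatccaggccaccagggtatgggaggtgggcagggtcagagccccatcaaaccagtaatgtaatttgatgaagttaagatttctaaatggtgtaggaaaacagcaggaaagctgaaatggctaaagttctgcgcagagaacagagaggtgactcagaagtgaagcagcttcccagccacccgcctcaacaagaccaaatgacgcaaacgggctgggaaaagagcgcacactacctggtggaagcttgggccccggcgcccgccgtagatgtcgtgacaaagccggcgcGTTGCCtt
Ttc21a: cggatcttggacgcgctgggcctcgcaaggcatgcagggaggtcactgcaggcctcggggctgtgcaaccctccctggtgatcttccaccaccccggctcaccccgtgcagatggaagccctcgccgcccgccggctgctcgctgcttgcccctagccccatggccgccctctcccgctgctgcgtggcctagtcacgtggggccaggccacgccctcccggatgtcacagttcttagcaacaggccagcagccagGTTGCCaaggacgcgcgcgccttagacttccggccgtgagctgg

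Members lie on 17 chromosomes in the GENCODE annotation of mm10. *Arl13a* spans chrX:134187501-134208028 on the plus strand, *Arl13b* chr16:62793685-62847040 on the minus strand and *Arl6* chr16:59612949-59639391 on the minus strand. *Bbs9* spans chr9:22475715-22888280 and *Ttc21a* chr9:119937606-119967793, both on the plus strand, and *Ttc21b* spans chr2:66184327-66256617 on the minus strand. *Ift20* spans chr11:78536361-78541737 on the plus strand, and *Ift80* chr3:68892499-69004570 on the minus strand. Exons of *Cluap1* share 510 bases, 22.4% of their length, on the same strand with *Gm20695*, which the count files do not list, so counts of *Cluap1* may include that stretch. All 31 members are annotated as protein coding.

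Limits apply to all of these values. Each tested group has 3 libraries, or 2 for spermatozoa, and the single KO spermatozoa library was not tested. Fractions are bulk samples, and the purity of each fraction was not measured apart from the marker lists. Counts are scaled to the other genes of a library, so a lower level is a lower share of the RNA, not fewer molecules per cell. Reads were counted per gene, and isoforms of *Bbs9* or any other member were not separated. RNA level says nothing about the amount of IFT or BBSome protein, the trains or the flagella of these cells.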

How the data were processed

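RNA was measured in 21 libraries. The deposited counts per gene were made by the authors with STAR 2.7.11b on mm10 and HTSeq (stranded, exon features, no multiply mapped reads), and were used as raw counts. Low-count genes were filtered with filterByExpr (minimum count 10), libraries were scaled by TMM, and comparisons were fitted with edgeR 4.0.16 quasi-likelihood (limma 3.58.1, R 4.3.3), with p-values adjusted by Benjamini-Hochberg over all genes tested. Wild-type stages were fitted together, as were KO stages, with separate fits for spermatozoa, for each KO comparison and for interactions. Alternatives were DESeq2 1.42.0, other scalings and filters, a replicate block and each library left out. Same-numbered round spermatid libraries deviated together over 8249 well-expressed genes (correlations 0.443, 0.244 and 0.112), but replicate 3 gave 0.0566 over all 12804 genes tested. Labels do not state a pairing. In other comparisons same-numbered libraries deviated together in part or not at all. Over well-expressed genes, wild-type round and condensing spermatids gave correlations of 0.349, -0.266 and 0.414. Wild-type and KO condensing spermatids gave 0.197, -0.0752 and 0.201. Any member may be named. Values per library are given for up to 4 members per direction with the largest non-overlapping called changes of each wild-type step, the 2 smallest p-values of each KO comparison, the highest and lowest levels per length, both paralog pairs and up to 3 pathway genes per direction and step, with a few others that show a range or overlap. Members and lists were chosen with earlier results of these data known. Marker lists covered germ cell stages, Sertoli, Leydig, peritubular myoid, macrophage, endothelium, red blood, epididymis and multiciliated cells. Exon lengths came from GENCODE vM21 and promoters from RefSeq. The fits were tested on simulated counts, where edgeR recovered 69 to 99% of changes of 1 log2 unit and 100% of changes of 2, with 6 to 14 false among 178 to 212 genes called. Only a small part of the genes, none with low counts, was changed there, equally up and down. These figures span all comparisons. They do not cover stage steps in which most genes change, or low members such as *Bbs12*.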

Additional observations from a re-analysis of the deposited data

How the results depend on the processing

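Over the alternatives the members called from pachytene to round spermatids ran from 8 to 11 higher and 14 to 17 lower in wild-type and from 7 to 12 and 14 to 18 in KO libraries. From round to condensing spermatids they ran from 3 to 4 higher and 13 to 21 lower in each genotype, and into spermatozoa 1 rose and 23 to 25 fell. No member was called in a KO comparison or interaction under any alternative. With library-size scaling the first KO step had 7 higher and 18 lower members, and the median over all genes moved from -0.02 to -0.20 in wild-type libraries. Of 1696 values of named genes under alternatives, 1593 kept their sign and their side of the threshold, 78 lost a call, 13 gained a call and 12 changed sign.

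The values that changed sign were small and not called in any setting, and the cause was not tested. *Wdr19* from pachytene to round spermatids went from -0.02 to 0.0217 under DESeq2 and 0.0214 with its size factors, to 0.00343 without pachytene replicate 2, to 0.0429 without round replicate 3 (-0.0736 without round replicate 1) and to 0.0160 with round replicates 2 and 3 summed. From round to condensing spermatids, without condensing replicate 2, *Ift46* went to -0.13 and *Bbs1* to -0.0514 (without replicate 3, 0.16 and 0.20). Into spermatozoa *Bbs2* went to -0.0181 with no filter and -0.0230 without sperm replicate 1 (0.11 without replicate 2). *Arl13a* there went to 0.04 without condensing replicate 3 and 0.13 without sperm replicate 2 (-0.55 without replicate 1), and to 0.0277 with a replicate block.

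With the longest transcript in place of the summed exons, levels moved to 182 CPM per kb for *Ift140* in pachytene spermatocytes, 128 for *Ift74* (as for *Ift43*) and 3.65 for *Bbs1* in round spermatids, 100.6 for *Ift74* in condensing spermatids and 315 for *Bbs9* in spermatozoa. A replicate block changed calls over all genes in the KO comparisons from 2 to 61 in round and from 1 to 26 in condensing spermatids, and called no member. The sperm libraries held 2772995 to 3450580 counts, which limits the detection of low genes there.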
